A study of Mus musculus with 96 samples.

Results

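The core circadian clock genes are the 10 genes Per1, Per2, Per3, Cry1, Cry2, Arntl, Clock, Nr1d1, Nr1d2 and Ciart. They were taken by name from 55335 gene identifiers in the count table, with no threshold on a measured value, but the set was proposed when earlier results had already shown clock genes lower in VIP nuclei. All 10 passed the filter on low counts in each of the 3 fits. The libraries hold nuclear RNA from mouse visual cortex. The mice belong to 3 lines (E1, E23, E123) whose genotypes are Igf1-E1 fl/fl, Igf1-E23 fl/fl and Igf1-E123 fl/fl, each crossed to VIP flp/wt, so that Igf1 enhancers are flanked by sites that Cre cuts and VIP interneurons carry the Flp recombinase. At 55 to 60 days of age the visual cortex received an adeno-associated virus (AAV) with the Syn1 promoter and a Flp-dependent cassette, either AAV-Syn1-fDIO-mScarlet-KASH-2a-Cre or the same vector with dCre, the control form. All mice, controls included, carried the floxed enhancers, the Flp allele and a virus, and all went into darkness 3 days after injection for 10 to 12 days. They were then taken in the dark or after 1 h of light. The clock time of collection is not given in the labels.

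VIP nuclei, and total nuclei taken without selecting a type, were sequenced separately from 50 to 100 nuclei per library. The 96 libraries form 24 groups of 3 to 5 biological replicates: 48 VIP libraries, 23 dark and 25 light, and as many of total nuclei. VIP libraries held 1559883 to 9122515 counts and total libraries 1881731 to 8972526. As a check of the labels, Igf1 in VIP nuclei was lower with Cre by a log2 fold change of −0.61 ± 0.10 (SE, adjusted p = 0.000949, edgeR quasi-likelihood test with Benjamini-Hochberg adjustment). Vip, which defines the sorted cells, averaged 5359 CPM (counts scaled to a common library size) in VIP nuclei and 44.6 in total nuclei. A length index compares long with short protein-coding genes (the difference of their mean log2 CPM), and it stood apart in replicates 1 and 2 of the dark dCre groups of E1 and E123. It was 3.87 to 3.99 in those 4 VIP libraries against 1.03 to 2.94 in the other 44, and 3.32 to 3.73 against 1.22 to 2.70 in total nuclei. With this index as a covariate 0 of 20585 genes were called with Cre in VIP nuclei, so the Igf1 call was lost there. For clock genes, calls over all lines that were lost without the libraries of high index are given both ways. Leaving them out keeps only replicate 3 in the dark dCre groups of E1, so a lost call is not by itself a lost response.

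In the mammalian clock the transcription factors CLOCK and BMAL1, the product of Arntl, pair and activate genes with E-box sequences. Among these are Per and Cry genes, whose proteins return to block the pair, and Nr1d1 and Nr1d2, whose REV-ERB proteins repress Arntl through ROR elements. Ciart encodes CHRONO, a further repressor of the pair. In the suprachiasmatic nucleus, the brain's central clock, light at night induces Per1 and Per2 through signals that reach CREB at cAMP response elements. In cortical neurons Per1 is also known as a gene that responds to neuronal activity.

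The 250 bases before an annotated start of Per1, Cry1, Cry2 and Ciart are printed, chosen by the light calls and the E-boxes. Per1 and Cry2 were called higher with light in both fractions. Cry1 was called in total nuclei, and its response did not differ past the threshold between the fractions. Ciart did not pass the light test and holds the most E-boxes. The sequences are from RefSeq, build GRCm38.p6, which has the coordinates of mm10. The Per1 sequence is chr11:69098699-69098948 on the plus strand, inside the span of the gene, which has more than 1 annotated start. The Cry1 sequence is chr10:85185055-85185304, that of Cry2 chr2:92434070-92434319 and that of Ciart chr3:95882229-95882478, all on the minus strand. Each is written 5′ to 3′, and capitals mark the letters that were searched for on both strands.

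Per1: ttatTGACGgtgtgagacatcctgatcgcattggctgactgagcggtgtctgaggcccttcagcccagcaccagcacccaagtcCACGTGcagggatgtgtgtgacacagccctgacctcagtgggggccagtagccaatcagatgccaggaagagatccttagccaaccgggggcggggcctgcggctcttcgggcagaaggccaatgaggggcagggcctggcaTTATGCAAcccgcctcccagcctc

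Cry1: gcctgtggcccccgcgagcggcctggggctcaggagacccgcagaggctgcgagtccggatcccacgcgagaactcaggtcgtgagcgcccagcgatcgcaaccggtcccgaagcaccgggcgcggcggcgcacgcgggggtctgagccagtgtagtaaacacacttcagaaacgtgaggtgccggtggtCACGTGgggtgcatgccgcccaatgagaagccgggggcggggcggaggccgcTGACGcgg

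Cry2: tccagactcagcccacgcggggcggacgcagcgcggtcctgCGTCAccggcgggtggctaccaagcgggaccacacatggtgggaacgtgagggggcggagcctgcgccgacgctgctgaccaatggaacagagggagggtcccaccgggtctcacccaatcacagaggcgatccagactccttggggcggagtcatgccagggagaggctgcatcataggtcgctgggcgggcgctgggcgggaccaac

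Ciart: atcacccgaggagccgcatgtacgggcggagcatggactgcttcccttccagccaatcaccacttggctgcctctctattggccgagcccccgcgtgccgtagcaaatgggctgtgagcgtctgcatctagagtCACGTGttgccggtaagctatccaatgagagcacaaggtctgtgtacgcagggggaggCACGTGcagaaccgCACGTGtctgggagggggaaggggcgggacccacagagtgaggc

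Windows of 300 bases, 250 before and 50 after a start, were searched for the E-box CACGTG, the cAMP response element TGACGTCA, its first 5 letters TGACG, the ROR element (TAGGTCA or TGGGTCA) and the D-box TTATGNAA. Of the 10 genes, 9 had 13 such windows, and Per2 was not among them. Ciart held 3 E-boxes, at −116, −58 and −44 from its start, Per1 held 1 at −166 and Cry1 held 1 at −60. Over 32851 windows of the table, 7.15% hold an E-box. The TGACG letters stood at −246 and, in a second window, at −132 in Per1, at −8 in Cry1 and, on the other strand, at −209 in Cry2, against 20.8% of all windows. No window of the members held the full cAMP response element, which 1.79% of all windows hold. Per3 held 2 D-boxes, at −205 and −158, and Per1 held 1 at −24 (3.38% of windows). A ROR element stood at 31 after a start of Arntl (6.45% of windows). These letters were not found in the windows of Clock, Nr1d1 and Nr1d2.

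Per length, Nr1d1 had the highest mean level of the 10 genes in both fractions. It stood at 16.5 ± 6.39 CPM per kilobase of exon (SD, n = 48) in VIP nuclei and at 22.1 ± 8.14 in total nuclei. In VIP nuclei Cry2 (13.8), Per1 (11.1), Nr1d2 (8.85), Clock (8.64), Per2 (7.88), Per3 (7.46), Ciart (6.28), Arntl (6.17) and Cry1 (4.55) followed in CPM per kilobase of exon. Neighbours in this order were close: the difference between each gene and the next was smaller than its SD over the 48 VIP libraries for all 9 neighbouring pairs. In total nuclei the order was Nr1d1, Ciart (15.0), Per3 (14.8), Cry2 (12.98), Per1 (12.5), Per2 (11.3), Nr1d2 (11.1), Arntl (8.87), Clock (7.83) and Cry1 (4.36). There the step from Clock to Cry1 was the only one larger than its SD, and Clock was above Cry1 in 43 of 48 libraries. Divided by the length of the whole gene instead, Nr1d1 stayed first and Cry1 last in both fractions, while Ciart had rank 3 in VIP nuclei and rank 2 in total nuclei. Nuclear RNA holds introns, and which length fits the counts better was not tested.

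**Figure D1:**
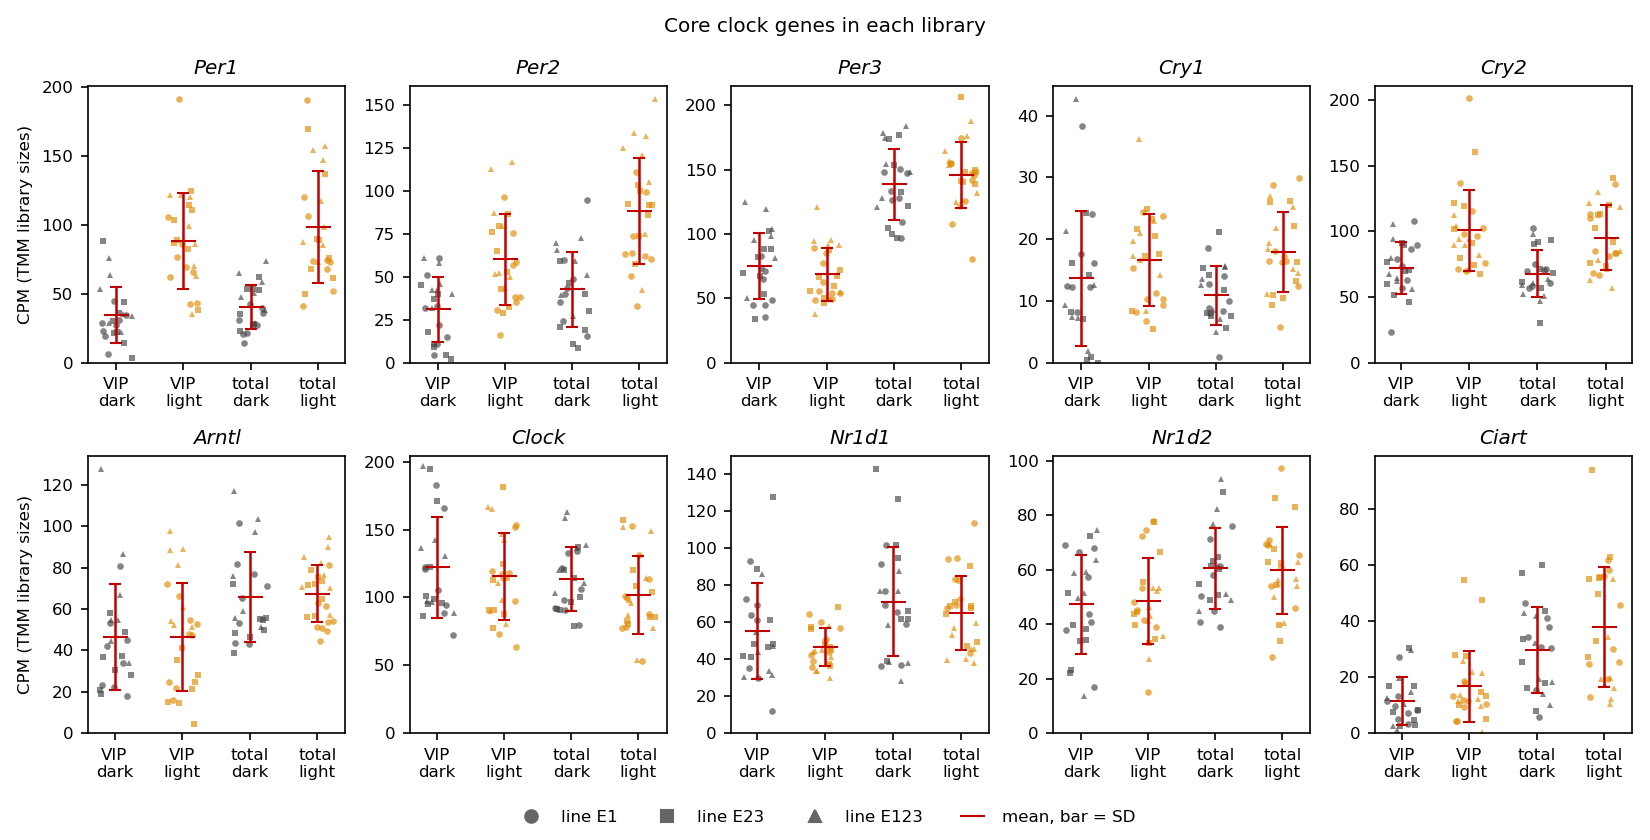
CPM of each of the 10 clock genes (y axis) in VIP and total nuclei after darkness and after light (x axis), with 1 point per library, shaped by line, and the mean with SD in red. Per1 and Per2 means stand higher after light in both fractions, and Per3 and Ciart stand lower in VIP than in total nuclei.

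Whether 1 h of light changed the clock genes after prolonged darkness was tested in each fraction over all lines and both viruses. The repressor genes Per1 and Per2, the acute light-responsive genes of the clock, rose in both fractions, and Cry2 rose in both. Cry1 rose in total nuclei. The activators Arntl and Clock, the repressors Nr1d1 and Nr1d2, Per3 and Ciart did not pass the test in either fraction. In VIP nuclei 3 of 10 members were called higher and 0 lower, where 3.46% of the 20585 genes tested were called higher. In total nuclei 4 of 10 were called higher and 0 lower, where 4.33% of 21213 were called higher. Over all genes and both directions, without the 4 dark libraries of high length index the share called went from 5.99% to 1.44% in VIP and from 7.78% to 3.16% in total nuclei, and 2 and 3 members were called.

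Per1 (ENSMUSG00000020893; chromosome 11, 69095217 to 69109960, plus strand, mm10) encodes PERIOD1, a partner of the CRY proteins. In VIP nuclei it ran from 3.56 to 87.9 CPM (median 29.8) in 23 dark libraries and from 35.3 to 191 (median 86.2) in 25 light libraries. The ranges overlapped, and all 25 light libraries lay above the dark median. Its means were 34.2 ± 20.4 and 88.3 ± 34.9 CPM (SD), and its log2 fold change was 1.44 ± 0.20 (SE, edgeR adjusted p = 3.3e-06), the 20th smallest p of all genes tested. In total nuclei Per1 ran from 14.3 to 73.6 CPM (median 37.8) in the dark and from 41.0 to 190 (median 87.3) after light. The log2 fold change there was 1.27 ± 0.14 (edgeR adjusted p = 3.48e-09), and again all 25 light libraries lay above the dark median.

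Per2 (ENSMUSG00000055866; chromosome 1, 91415982 to 91459324, minus strand) encodes PERIOD2. In VIP nuclei it ran from 2.05 to 61.0 CPM (median 33.04) in the dark and from 16.0 to 116 (median 52.5) after light. In total nuclei it ran from 8.58 to 94.9 CPM (median 40.0) in the dark and from 32.6 to 153 (median 91.5) after light. Light and dark ranges overlapped in both fractions. The log2 fold change was 1.02 ± 0.22 in VIP nuclei (edgeR adjusted p = 0.00338) and 1.05 ± 0.16 in total nuclei (adjusted p = 6.08e-06). Per3 (ENSMUSG00000028957; chromosome 4, 151003652 to 151044665, minus strand), a further PERIOD gene, ran from 33.8 to 125 CPM (median 73.9) in the dark and from 37.6 to 121 (median 62.4) after light in VIP nuclei, so the ranges nearly coincided. Its log2 fold changes were −0.09 ± 0.13 in VIP and 0.07 ± 0.08 in total nuclei, neither past the threshold.

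Cry2 (ENSMUSG00000068742; chromosome 2, 92403646 to 92434043, minus strand) encodes a cryptochrome that represses CLOCK and BMAL1. In VIP nuclei it ran from 23.1 to 108 CPM (median 70.2) in the dark and from 67.1 to 202 (median 94.5) after light. In total nuclei it ran from 30.3 to 103 (median 63.9) and from 56.5 to 141 (median 85.2). Light values were higher on average, and the ranges overlapped in both fractions. The log2 fold change was 0.49 ± 0.13 in VIP nuclei (edgeR adjusted p = 0.0151) and 0.53 ± 0.11 in total nuclei (adjusted p = 0.00107). In VIP nuclei the call was lost without the 4 dark libraries of high length index (0.36, adjusted p = 0.170) and when the length index entered as a covariate (0.35, edgeR adjusted p = 0.163). Cry2 shares 295 exon bases with D930015M05Rik on the opposite strand, and this chemistry does not mark strand, so reads there cannot be told apart.

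Cry1 (ENSMUSG00000020038; chromosome 10, 85131700 to 85185064, minus strand), the other cryptochrome, was the least abundant member per length. In total nuclei it ran from 0.915 to 21.2 CPM (median 10.1) in the dark and from 5.82 to 29.8 (median 16.5) after light, with overlapping ranges. Its log2 fold change there was 0.72 ± 0.20 (edgeR adjusted p = 0.0183). Without the 4 dark libraries of high length index it was 0.74 and the call was lost (adjusted p = 0.0896). In VIP nuclei Cry1 averaged 13.7 ± 10.9 CPM in the dark and 16.6 ± 7.43 after light, with a log2 fold change of 0.35 ± 0.31 that did not pass the test.

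The activator genes differed little between dark and light. Arntl (ENSMUSG00000055116; chromosome 7, 113207465 to 113314126, plus strand) stood at 46.4 ± 25.7 CPM in dark and 46.5 ± 26.1 in light VIP nuclei, with a log2 fold change of −0.05 ± 0.18. Clock (ENSMUSG00000029238; chromosome 5, 76209868 to 76304792, minus strand) had −0.09 ± 0.12 in VIP and −0.17 ± 0.10 in total nuclei. Among the repressors, Nr1d1 (ENSMUSG00000020889; chromosome 11, 98767932 to 98775333, minus strand) had −0.18 ± 0.16 and −0.09 ± 0.13. Nr1d2 (ENSMUSG00000021775; chromosome 14, 18204054 to 18239127, minus strand) had 0.02 ± 0.16 and −0.03 ± 0.12. Ciart (ENSMUSG00000038550; chromosome 3, 95878503 to 95882251, minus strand) had 0.54 ± 0.32 in VIP nuclei and 0.37 ± 0.20 in total nuclei, positive in both and past the threshold in neither. Nr1d1 shares 263 exon bases with Thra, a thyroid hormone receptor gene on the opposite strand, which fell with light by 0.52 on the log2 scale in VIP nuclei (edgeR adjusted p = 0.0126) and by 0.44 in total nuclei (adjusted p = 0.00611). Both Thra calls were lost without the 4 dark libraries of high length index (−0.43, adjusted p = 0.125, and −0.38, adjusted p = 0.0836). The part of Thra in the Nr1d1 values was not tested.

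The light comparison was set beside Nr4a1, an orphan nuclear receptor gene known to respond quickly to neuronal activity. Fos and Npas4 were also listed as checks and are not reported here. Nr4a1 had the smallest p of all genes in both fractions, with log2 fold changes of 2.30 ± 0.16 in VIP and 2.39 ± 0.14 in total nuclei. The Per1 estimates were below these, and the difference was not tested. Some cell type markers also rose in VIP nuclei after light. Of GABAergic markers, which VIP interneurons share, 4 of 6 were called higher, and of markers of other cells 2 of 7 astrocyte, 2 of 7 oligodendrocyte lineage and 1 of 8 excitatory markers were. Of VIP interneuron markers 1 of 8 was called higher, and their sum averaged 28730 CPM in dark and 24470 in light VIP libraries. Of microglia markers 0 of 6 and of endothelial and mural markers 0 of 5 were called higher. The summed astrocyte markers ran from 185.5 to 596 CPM in dark and from 232 to 2330 in light VIP libraries. In total nuclei 0 of 6 GABAergic, 1 of 7 astrocyte and 1 of 8 excitatory markers were called higher, and 1 of 8 excitatory markers lower. Of VIP interneuron markers there, 1 of 8 was called higher and 1 lower. Their part in the rise of the Per and Cry genes was not tested.

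**Figure D2:**
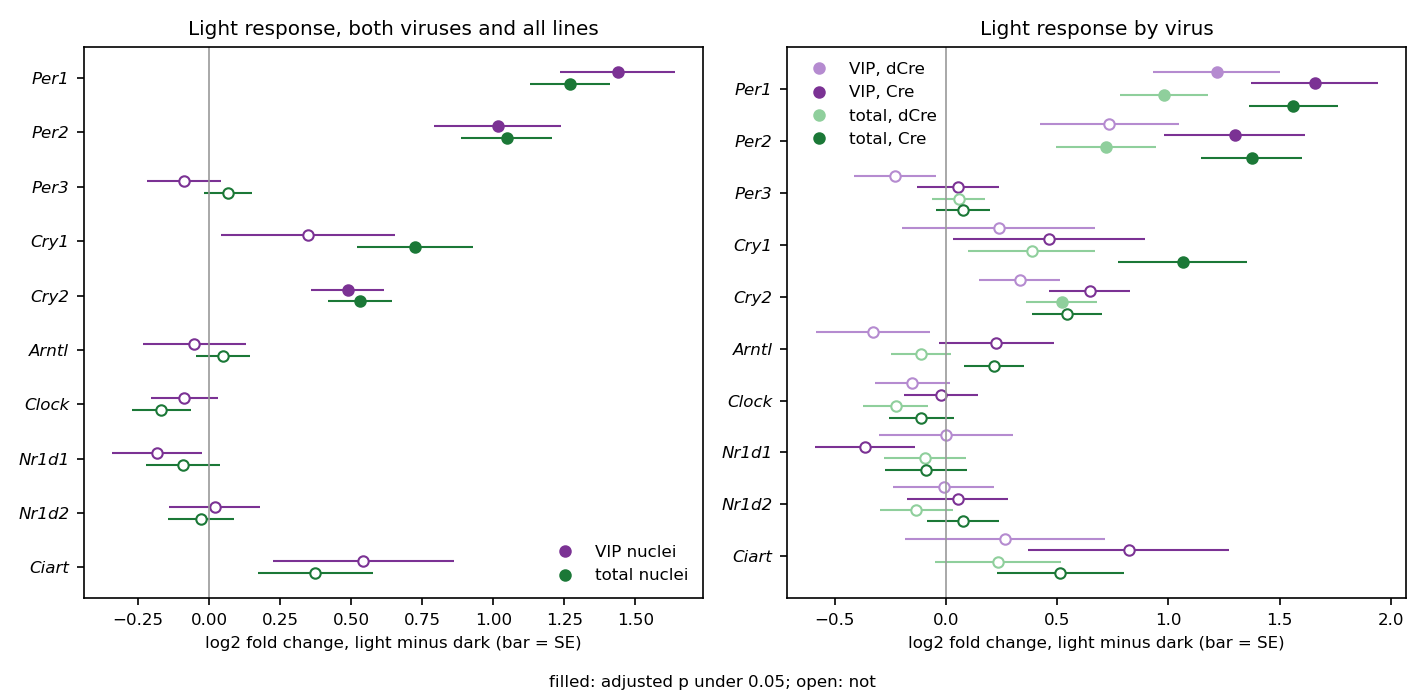
Log2 fold change of each clock gene, light minus dark, with its SE as a bar (x axis), over all conditions on the left and by virus on the right; filled points have an adjusted p under 0.05. Per1 lies highest in both fractions, at 1.44 in VIP and 1.27 in total nuclei, and Per3, Arntl, Clock, Nr1d1 and Nr1d2 lie near 0.

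Taken by line and virus, each fraction gives 6 light comparisons of 3 to 5 against 3 to 5 libraries. The Per1 mean was higher after light in 6 of 6 of them in VIP and in total nuclei, as 5.34% and 5.93% of genes with a mean of 5 CPM or more were. Cry2 means were also higher in 6 of 6 in both fractions, Per2 means in 6 of 6 in VIP and 5 of 6 in total nuclei, and Cry1 means in 4 of 6 and 6 of 6. All light libraries lay above all dark libraries for Per1 in 2 of 6 comparisons in each fraction, as in 2.86% of genes in VIP and 4.27% in total nuclei for 2 or more. For Per2 this held in 3 of 6 comparisons in total nuclei, against 1.33% of genes for 3 or more, and in 0 of 6 in VIP nuclei. For Cry1 and Cry2 it held in 1 of 6 in each fraction, where 17.2% of genes in VIP and 18.9% in total nuclei did so at least once.

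In VIP nuclei Per1 separated without overlap in E1 with dCre and in E23 with Cre. In the latter its 4 dark libraries held 21.2, 36.2, 13.9 and 3.56 CPM and its 4 light libraries 88.6, 111, 124 and 86.7. In E1 with dCre the 3 dark libraries held 28.9, 6.32 and 34.8 CPM and the 5 light libraries 76.7, 43.3, 69.1, 86.2 and 65.7. Every light value was above every dark one in both. In VIP nuclei of line E123 with Cre, dark libraries held 53.7, 33.9 and 63.2 CPM of Per1 and light libraries 121, 35.3, 63.0 and 122, so the groups overlapped. The Per1 log2 fold changes of VIP nuclei were 1.68 ± 0.35 in E1, 1.65 ± 0.34 in E23 and 0.98 ± 0.36 in E123. Differences between lines, a comparison added after seeing the data, passed the test for 0 of 10 members in either fraction (smallest edgeR adjusted p = 0.294). Of all genes, 0.0% passed in VIP nuclei and at most 0.0189% in total nuclei, so this count does not set the members apart. Members at an unadjusted p under 0.05 were Per2, Arntl and Nr1d1, between E1 and E23 in total nuclei.

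Per2 was the exception in line E1 with dCre. In total nuclei, its 3 dark libraries held 94.9, 59.8 and 35.3 CPM and its 5 light libraries 63.3, 32.6, 60.4, 50.2 and 61.9. Here light libraries were not higher, and the log2 fold change was −0.21 ± 0.39 (edgeR adjusted p = 0.819). The 2 highest dark values belong to the libraries of high length index. In the E1 Cre group of total nuclei, dark libraries held 39.9, 43.3, 24.4, 48.4 and 15.7 CPM of Per2 and light libraries 111, 63.7, 99.5 and 73.5, with no overlap. Over both fractions the 4 dark libraries of high length index averaged 46.4 CPM of Per2 in VIP and 69.9 in total nuclei, against 27.8 and 36.9 in the other 19 dark libraries. Arntl also averaged higher in those libraries (71.7 and 99.7 CPM against 41.1 and 58.8), although its lowest VIP value among them was 23.4 CPM. Nr1d1 averaged lower (26.4 and 39.9 against 61.1 and 77.8). Clock averaged higher in VIP nuclei (170.6 against 111.8) and Ciart lower in total nuclei (12.5 against 33.1). Per1 averaged lower in VIP nuclei (21.55 against 36.86) and in total nuclei (36.5 against 41.2). The 4 libraries of each fraction come from E1 and E123 only, and the other 19 from all 3 lines.

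Light libraries of Arntl, the gene of BMAL1, lay on opposite sides of the dark ones in 2 conditions of total nuclei. In E1 with dCre its 5 light libraries, 61.3, 62.7, 49.1, 50.7 and 54.3 CPM, all lay below the 3 dark ones, 102, 76.7 and 65.5. The dark values 102 and 76.7 belong to libraries of high length index, in which Arntl averaged higher. In E23 with Cre its 4 light libraries, 56.8, 73.7, 79.0 and 71.8 CPM, all lay above the 4 dark ones, 55.5, 46.5, 50.0 and 54.6. Neither passed the test (edgeR adjusted p = 0.189 and 0.742). In total nuclei 17.8% of genes had at least 1 comparison with all light libraries below the dark ones. In VIP nuclei this was so for Arntl in E23 with dCre and for Nr1d1 in E123 with Cre, 1 of 6 comparisons each, as in 15.3% of genes.

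**Figure D3:**
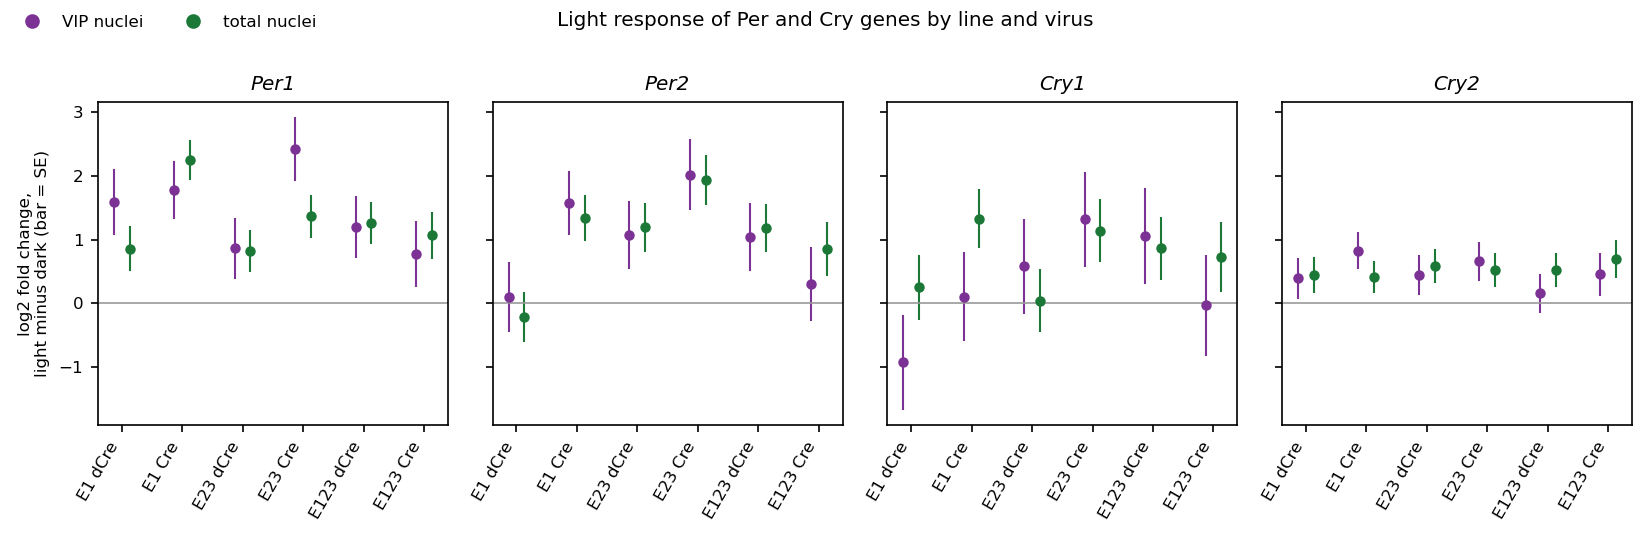
Log2 fold change, light minus dark, with its SE (y axis) for Per1, Per2, Cry1 and Cry2 in each line and virus (x axis), VIP nuclei in purple and total nuclei in green. Per1 lies above 0 in all 12 comparisons, and Per2 lies at −0.21 in total nuclei of E1 with dCre.

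Split by virus, the called genes were fewer. In VIP nuclei of dCre mice 1 of 10 members was called higher (3.97% of genes), Per1 at 1.22 ± 0.28. In VIP nuclei of Cre mice 2 of 10 were (0.267% of genes), Per1 at 1.66 ± 0.29 and Per2 at 1.30 ± 0.32. In total nuclei of dCre mice 3 of 10 were called higher (3.42% of genes): Per1 at 0.98 ± 0.20, Per2 at 0.72 ± 0.22 and Cry2 at 0.52 ± 0.16. In total nuclei of Cre mice 3 of 10 were (1.09% of genes): Per1 at 1.56 ± 0.20, Per2 at 1.37 ± 0.23 and Cry1 at 1.06 ± 0.29. Without the 4 dark libraries of high length index, the calls in dCre mice were lost in both fractions, with Per1 at 0.86 in VIP and 0.79 in total nuclei. That fit keeps only replicate 3 in the dark dCre groups of E1, so the lost calls do not show that the response was absent. In VIP nuclei of Cre mice Per2 also lost its call without them, at 1.29, and in total nuclei of Cre mice Cry1 lost its call, at 1.05. No Cre library was left out and both estimates stayed close to those above. All groups of a fraction share 1 fit and 1 adjustment, and the genes tested in VIP nuclei went from 20585 to 23901.

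The difference of the light response between Cre and dCre mice passed the test for 0 of 10 members in VIP nuclei, where 1 gene of all tested passed (0.00486%). The difference for Per1 was 0.44 on the log2 scale, with an interval of 2 SE from −0.34 to 1.23, and for Per2 it was 0.56, from −0.32 to 1.44. In total nuclei it was 0.58 for Per1 (from 0.03 to 1.13) and 0.66 for Per2 (from 0.03 to 1.28), and 0 of 10 members passed (0.0% of genes, a comparison added after seeing the data). At an unadjusted p under 0.05 in edgeR there were 0 of 10 members in VIP nuclei and 2, Per1 and Per2, in total nuclei, and in VIP nuclei DESeq2 also called 0 of 10. The intervals include differences above 1 on the log2 scale, so equal responses were not shown.

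The light response was also compared between VIP and total nuclei in 1 fit of all 96 libraries. It differed past the threshold for 0 of 10 members, and for 0.0872% of 22926 genes. For Per1 the difference, VIP minus total, was 0.16 with an interval of 2 SE from −0.33 to 0.66. For Per2 it was −0.04, from −0.62 to 0.53, for Cry2 −0.05, from −0.38 to 0.29, and for Cry1 −0.38, from −1.12 to 0.36. The edgeR adjusted p was 1 for every member, and 0 of 10 had an unadjusted p under 0.05.

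Levels in VIP nuclei were then compared with those in total nuclei over all conditions. Lower in VIP nuclei were the repressor genes Ciart, Per3, Per2, Nr1d1 and Nr1d2 and the activator gene Arntl, 6 of 10 members, where 20.7% of genes were called lower. The set was proposed when earlier results had already shown clock genes lower in VIP nuclei. This count and the p-values of this comparison are therefore a description, not independent support. The activator Clock, both Cry genes and Per1 did not pass the test. In bulk libraries fewer cells of a type and less RNA per cell cannot be told apart.

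Ciart ran from 0.396 to 54.6 CPM (median 11.7) in 48 VIP libraries and from 5.73 to 93.9 (median 31.4) in 48 total libraries. The ranges overlapped widely. Its log2 fold change, VIP minus total, was −1.26 ± 0.19 (edgeR adjusted p = 3.1e-08). Per3 ran from 33.8 to 125 CPM (median 68.4) in VIP and from 80.7 to 206.5 (median 146.5) in total nuclei, with partly overlapping ranges. Its log2 fold change was −1.02 ± 0.08 (edgeR adjusted p = 6.48e-21). Per3 lies within the span of Camta1 on the same strand, but shares no exon bases with it.

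Arntl ran from 4.40 to 128 CPM (median 44.9) in VIP and from 38.5 to 117 (median 63.7) in total nuclei. Its log2 fold change was −0.62 ± 0.10 (edgeR adjusted p = 3.64e-07). Per2 had −0.52 ± 0.14 (adjusted p = 0.00215), Nr1d1 −0.40 ± 0.10 (adjusted p = 0.000902) and Nr1d2 −0.35 ± 0.10 (adjusted p = 0.00246), all by the same edgeR test. The call for Nr1d2 was lost without line E23 (−0.28, adjusted p = 0.0666). Per1 had −0.21 ± 0.12 (adjusted p = 0.203), and it was called lower when libraries were scaled by total counts alone (−0.33, adjusted p = 0.0392). Clock had 0.14 ± 0.08, Cry2 0.10 ± 0.08 and Cry1 0.07 ± 0.19.

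In dark libraries alone 4 of 10 members were called lower (17.0% of genes) and in light libraries 5 of 10 (15.7%). Ciart, Per3 and Arntl were among them in both. By line, 4 of 10 were called lower in E1 (16.5% of genes), 4 in E23 (14.0%) and 2 in E123 (7.69%), with Per3 and Ciart called in each. Arntl had −0.55 ± 0.18 in E1, −1.10 ± 0.18 in E23 and −0.23 ± 0.18 in E123. The difference between E123 and E23 was 0.87 ± 0.26 (edgeR adjusted p = 0.0777) and did not pass the test.

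**Figure D4:**
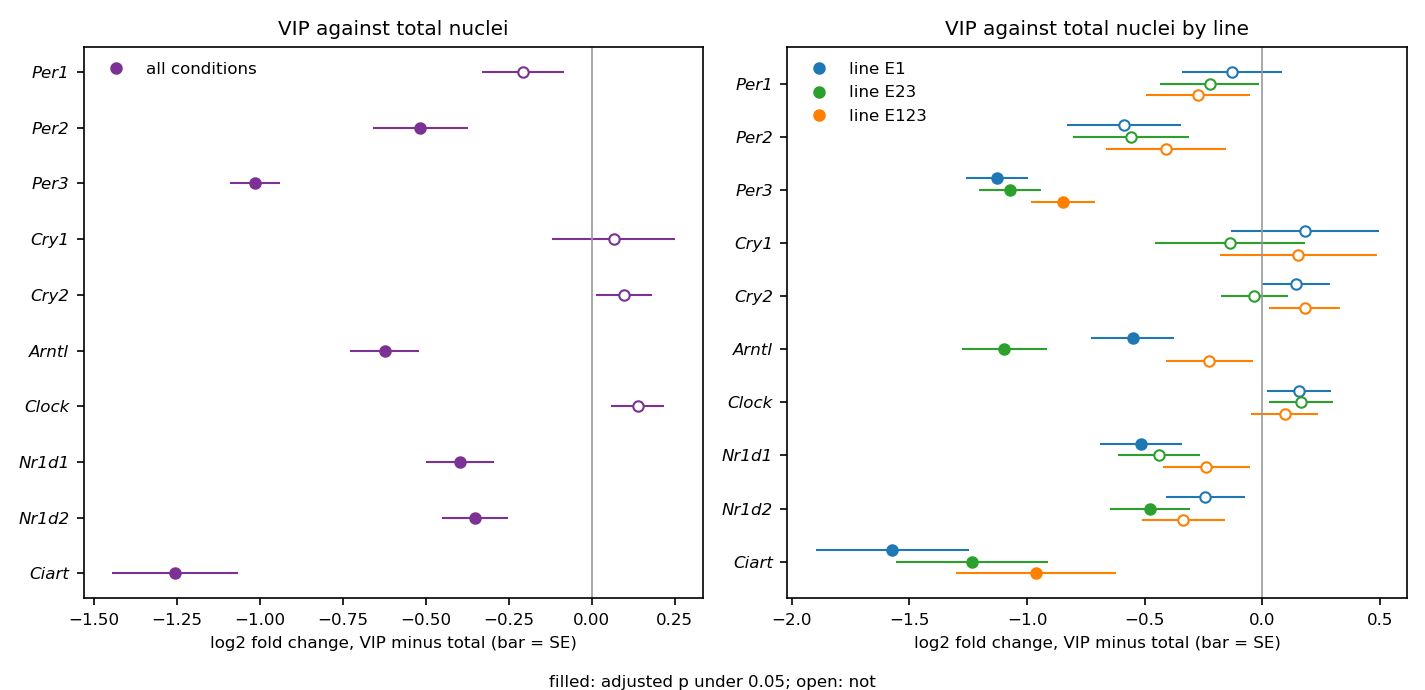
Log2 fold change of each clock gene, VIP minus total nuclei, with its SE (x axis), over all conditions on the left and by line on the right; filled points have an adjusted p under 0.05. Ciart (−1.26) and Per3 (−1.02) lie lowest, and Clock, Cry1 and Cry2 lie near 0.

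Cell type markers differed between the fractions in the same comparison. All 8 of 8 VIP interneuron markers were higher in VIP nuclei, and their summed level ran from 11400 to 46480 CPM there against 64.5 to 1689 in total nuclei. All 8 of 8 excitatory neuron, 7 of 7 oligodendrocyte lineage and 6 of 6 microglia markers were lower. Excitatory markers summed to 29.5 to 715 CPM in VIP and 478 to 991 in total nuclei. Astrocyte markers were lower for 3 of 7, with sums of 185.5 to 2330 and 278 to 965. Their part in the lower levels of Ciart, Per3 and Arntl was not tested.

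Whether Cre changed the clock genes was tested over all lines and both light conditions. No member passed the test: 0 of 10 in VIP nuclei, where 3.74% of genes did, and 0 of 10 in total nuclei, where 0.0283% did. At an unadjusted p under 0.05 there was 1 member in each, Per2 in VIP nuclei and Arntl in total nuclei. Per2 in VIP nuclei had the largest difference, −0.46 ± 0.22 (edgeR adjusted p = 0.230), with an interval of 2 SE from −0.90 to −0.02. It was −0.15 with the length index as a covariate and −0.41 without the 4 libraries of high index. Arntl in total nuclei had −0.20 ± 0.09 (edgeR adjusted p = 0.440). DESeq2 also called 0 of 10 in both fractions. The share of all genes called in VIP nuclei was 0.0126% without the 4 dark dCre libraries of high length index and 0.0% with that index as a covariate.

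Of 20 other clock pathway genes, 8 were called lower in VIP than in total nuclei and 0 higher, where 20.7% of all genes were lower and 14.8% higher. This list, too, was chosen with earlier results of these data known. Without the 4 libraries of high length index, 2 of the 8 lost their call, Npas2 (−0.28, edgeR adjusted p = 0.0853) and Arntl2 (−0.33, adjusted p = 0.162). The 4 with the smallest p were Hlf at −1.85 ± 0.16, a factor that binds D-boxes, Bhlhe40 at −1.58 ± 0.20 and Bhlhe41 at −0.69 ± 0.11, repressors at E-boxes, and Rorb at −1.42 ± 0.21, an activator at ROR elements. Their edgeR adjusted p ran from 4.31e-18 for Hlf to 4.2e-08 for Rorb. Rorb is also on the list of excitatory neuron markers above, so it was counted in both lists, here and in the light comparison. With light, 1 of 20 was called in VIP nuclei, Bhlhe40, which rose by 1.45 ± 0.38 (edgeR adjusted p = 0.0149), against 3.46% of all genes. That call was lost without the 4 libraries (1.15, adjusted p = 0.156). In total nuclei 2 of 20 rose, Bhlhe40 by 0.97 ± 0.18 and Nfil3, a repressor at D-boxes, by 1.34 ± 0.38, and Rorb fell by 0.68 ± 0.12, against 4.33% of all genes called higher and 3.46% lower. The call of Nfil3 was lost without the 4 libraries (1.23, edgeR adjusted p = 0.165). The median over the 20 genes was 0.05 in VIP and −0.08 in total nuclei, against 0.02 and −0.03 over all genes. With Cre, 2 of 20 were called lower in VIP nuclei, Npas2, a relative of Clock (−0.62 ± 0.17, edgeR adjusted p = 0.0333), and Rora (−0.47 ± 0.13, adjusted p = 0.0324), and 0 of 20 in total nuclei, where 1.43% of genes were called lower in VIP nuclei. Both calls were lost without the 4 libraries of high length index (Npas2 −0.45, adjusted p = 0.497; Rora −0.36, adjusted p = 0.474).

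Variation between libraries of 1 group was described with deviations of log2(CPM + 1) from the group mean. VIP and total libraries that share a condition and a replicate number had the same sex label in 48 of 48 cases, but the labels do not say that they share an animal. Over these 48 pairs Per2 had the highest correlation of the members, a Pearson r of 0.49 and a Spearman rho of 0.47, given as a description of the highest of 10. Of 12211 genes, 7.17% had a higher r. The r of Per2 was 0.49 without the 2 libraries farthest from the median, and 0.56, 0.54 and 0.21 within E1, E23 and E123. Per1 had 0.27, Clock 0.30, Nr1d1 0.27 and Arntl −0.10, where the median over all genes was 0.15. Without the 4 pairs of high length index these were 0.17 for Per1, 0.22 for Clock, 0.05 for Nr1d1 and −0.26 for Arntl, while Per2 had 0.49.

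Between members, the highest correlation among 48 VIP libraries was that of Per1 with Cry2 (r = 0.56, rho = 0.48), and among total libraries that of Per2 with Per3 (r = 0.46, rho = 0.46). Over the 45 pairs of members the median r was 0.08 in VIP and 0.13 in total nuclei. The genes most like Per1 were Prpf19 (r = 0.74), Ctr9, Morn1, Rbck1 and Chpf2 in VIP nuclei and Atxn2l (r = 0.65), Epm2aip1, Zdhhc16, Fam160a2 and 6530437J22Rik in total nuclei. Those most like Arntl were Atn1 (r = 0.63), Arhgef17, Radil, Ago2 and Slc6a7 in VIP nuclei, and in total nuclei Ldb2 had the highest r (0.71). No gene was among the 5 of both fractions, and no clock gene was among them.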

How the data were processed

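The only file used holds raw counts per gene for 96 libraries, deposited by the authors and checked to be whole numbers. Per the labels' protocols, nuclei were sorted into lysis buffer, cDNA was primed with oligo-dT, amplified over 17 cycles and made into libraries with Nextera XT. This kit does not mark strand, and the protocols name no molecular identifiers. The submitters' processing notes name cutadapt 1.18, STAR 2.5.3a, HOMER 4.9.1 and mm10. The annotation release and strand setting are not given in the sources used here. Symbols, positions and lengths came from GENCODE vM21 of the same build, which matched 55154 of 55335 identifiers. The 181 others held 0.0225% of counts.

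Counts were fitted in edgeR 4.0.16 (R 4.3.3) with glmQLFit and glmQLFTest, robust, after filterByExpr and TMM scaling; each group had its own coefficient. Separate fits covered the 48 VIP libraries (20585 genes), the 48 of total nuclei (21213 genes) and all 96 (22926 genes), and lines and conditions were averaged with equal weight. Benjamini-Hochberg adjustment ran over all genes of a fit, and called means an adjusted p under 0.05. The SE of a log2 fold change is its size divided by the square root of F. Levels are CPM on TMM library sizes. Replicates varied with a biological coefficient of variation of 0.815 (VIP) and 0.679 (total). On simulated data, the test recovered 14 of 100 genes changed 2-fold and 85 of 100 changed 4-fold in the VIP light comparison of 18436 genes. It recovered 28 and 92 of 100 in the total light comparison of 18941 genes and 47 and 93 in the comparison of fractions, of 19754 genes. Every simulated gene had the common coefficient of variation, and the changed genes were drawn at random from all levels. These shares therefore do not give the power for the members, whose own spread and levels were not simulated.

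Described by name are all 10 members, up to 4 pathway genes per direction with the smallest p, and the 5 genes most like Per1 and Arntl by Pearson r over 48 libraries among genes with a mean of 5 CPM or more. For Arntl in total nuclei only the first is named, and the rest of that list is not reported here. The marker and pathway lists, the rules and the members were chosen with earlier results of these data known, which had already shown clock genes lower in VIP nuclei. Alternatives were RLE and total-count scaling, no filter, DESeq2 1.42.0, a replicate block, length index and sex as covariates, and leaving out libraries or lines. The labels call replicates biological but name no animals. Differences between lines, and the interaction of light and Cre in total nuclei, were added after seeing the data. The planned permutation p-values of the correlations between fractions are not given, since the members were chosen with results known. No promoter of Per2 was used.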

Additional observations from a re-analysis of the deposited data

Results flagged for a closer look

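In each group of 4 or 5 libraries, the highest and the lowest library were compared with the rest by Dixon's criterion on log2(CPM + 1), and 14 of 200 tests (7.0%) found 1 library far from the others. Chance gives about 1 in 20, so the number is near it.

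Among the PERIOD genes, Per2 stood at 79.7 CPM in replicate 1 of E123 Cre light VIP nuclei, against 49.9 to 52.4 in the others. In the same library Per3 was low, at 54.9 CPM against 91.6 to 95.4. In total nuclei Per3 reached 206 CPM in replicate 2 of E23 dCre light, against 141 to 150.

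The cryptochrome gene Cry1 stood at 0.915 CPM in replicate 1 of E1 Cre dark total nuclei (others 7.95 to 12.8) and at 28.7 in replicate 3 of E1 Cre light total nuclei (others 16.5 to 18.0). Cry2 reached 97.6 CPM in replicate 3 of E123 dCre dark total nuclei (others 58.8 to 63.9).

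Of the activators, Arntl was low at 54.1 CPM in replicate 4 of E123 dCre light VIP nuclei (others 88.7 to 97.5). Clock was high at 152 CPM in replicate 4 of E1 dCre light VIP nuclei (others 114 to 120) and at 171 in replicate 3 of E23 dCre dark VIP nuclei (others 85.9 to 95.7).

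Of the other repressors, Nr1d1 was high at 86.0 CPM in replicate 4 of E123 dCre dark VIP nuclei (others 30.3 to 33.7) and at 128 in replicate 2 of E23 Cre dark VIP nuclei (others 41.2 to 48.3). Nr1d2 was low at 27.8 CPM in replicate 3 of E1 dCre light total nuclei (others 65.4 to 70.9). Ciart was high at 54.7 CPM in replicate 1 of E123 Cre light total nuclei (others 16.0 to 19.7) and low at 0.396 in replicate 3 of E123 dCre light VIP nuclei (others 11.5 to 13.4).

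In total nuclei all light libraries lay below the dark ones for Arntl in E1 with dCre (log2 fold change −0.53) and above them in E23 with Cre (0.45). The difference between these 2 conditions was not tested. In E1 with dCre, dark replicates 1 and 2 are libraries of high length index.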

How the results depend on the processing

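Over all lines and both viruses, each count of called members stayed within 1.5 times its value under every alternative run, and no called member changed direction. The light calls of Per1 and Per2 held in both fractions under every alternative, and each omission of 1 of 48 libraries left 3 members called in VIP and 4 in total nuclei. Within a virus calls were less stable. With the length index as a covariate, 0 rather than 1 member was called with light in VIP and 1 rather than 3 in total nuclei of dCre mice. In VIP nuclei of Cre mice the call of Per2 was lost in 32 of 48 omissions (log2 fold change 1.13 to 1.62). In total nuclei of dCre mice Per2 lost its call in 18 of 48, and Cry2 in 11. In total nuclei of Cre mice Cry1 lost it in 14. Without the 4 dark libraries of high length index 3 members rather than 4 were called with light in total nuclei, and 2 rather than 3 in VIP nuclei.

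Replicate numbers were taken as shared names only, because the labels name no animals. Of 48 same-number pairs of a VIP and a total library, 32 had a correlation over 0.1. Among the total libraries of its own condition, the VIP library matched its own number best in 34 of 48 cases. Random matching would give on average 1 per condition, of 12 conditions. The numbers thus hold information on pairing that the main fit of all libraries did not use. With condition and number as a block in that fit, 7 rather than 6 members were lower in VIP nuclei, Per1 being added at −0.28 (edgeR adjusted p = 0.0375). Within a fraction the block was another: it joined libraries of a line that share a number across light and virus. Mean correlations of such libraries ran from −0.09 to 0.22, and the pairing above does not bear on this block. With it, light still raised 3 members in VIP and 4 in total nuclei. By virus, the block left 2 members called with light in VIP nuclei of dCre mice rather than 1, with Per2 at 0.95. In total nuclei it ended the calls of Cry2 in dCre mice (0.49, edgeR adjusted p = 0.0625) and of Cry1 in Cre mice (adjusted p = 0.0569) and added Cry2 in Cre mice (0.62, adjusted p = 0.0432). In the VIP light comparison the SE of a member ran from 0.12 to 0.32 on the log2 scale, which limits the changes that could pass.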
